A study of Mus musculus with 24 samples.

Results

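The genes described here encode the oxidative phosphorylation machinery: the subunits of respiratory complexes I to IV and of ATP synthase (complex V), with the assembly factors that carry the same name stems. They were chosen by symbol (starting with Nduf, Uqcr, Sdha, Sdhb, Sdhc, Sdhd, Cox4 to Cox8 or Atp5, or a protein-coding gene of the mitochondrial genome named mt-Nd, mt-Co, mt-Atp or mt-Cytb, without pseudogenes marked -ps) and by a mean level of at least 5 CPM (counts scaled to library size) over all 24 libraries. Of 48526 genes in the files, 109 had such a symbol and 100 reached that level, 87 of the nuclear genome and 13 of the mitochondrial genome. The rule used 1 measured value, the level over all libraries, and this gene set was proposed with earlier results of these data known. Just inside the limit were Ndufaf3 and Sdhaf4, at 6.61 and 6.75 CPM, and just outside were Cox6b2 and Atp5s, at 4.50 and 4.21 CPM. All 100 also passed the filter on low counts used for testing.

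The libraries hold RNA of CD8+ T cells from OT-1 mice, which carry a transgenic T cell receptor for an ovalbumin peptide and were given as a Jackson Laboratory stock. Whole splenocytes were cultured with 2 µg/mL peptide, and T cells were then recovered with magnetic beads that remove other cells. The 6 groups of 4 libraries were named OVA (peptide alone), TLR2 and TLR7, each at 24 h and 72 h, so all groups share the peptide and none was left unstimulated. The agonists of Toll-like receptors (TLRs, sensors of microbial products) were added 1 h before the peptide to cultures that also held the other spleen cells. Pam3CSK4, a TLR2 ligand, was listed at 300 ng/mL. The 2 compounds listed that act on TLR7 were gardiquimod at 3 µg/mL and R848 at 10 µg/mL, and the labels do not say which of them the TLR7 group received. The sex and age of the mice have no entry in the labels. Neither does the origin of the replicates (1 mouse or several), so the spread behind each p-value is that of the libraries and could be technical.

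In oxidative phosphorylation, complexes I and II pass electrons through coenzyme Q to complex III, cytochrome c and complex IV, protons are pumped across the inner mitochondrial membrane, and ATP synthase makes ATP as they flow back. The mitochondrial genome encodes core subunits of complexes I, III, IV and V but none of complex II. All other subunits are encoded in the nucleus, made in the cytosol and imported, so each complex other than complex II needs products of both genomes. CD8 T cells are known to raise glycolysis and to build up mitochondria after activation.

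Library totals lay between 10.5 and 27.1 M counts (M for mega), and 5 libraries, spread over 4 groups, had at most 11.7 M while the others had at least 21.5 M. The first principal component of all genes held 60.2% of the variance and separated 8 libraries at 24 h from 8 at 72 h, with another 8 in the middle: OVA at 24 h replicates 1 and 3, TLR7 at 24 h replicates 3 and 4, OVA at 72 h replicate 4, and TLR2 at 72 h replicates 1, 3 and 4. These 8 are called the middle libraries, and counts of members called over time are given with and without them. So are the values of named members that they move by more than 1.5 times. They were picked by their place between the 2 times in these same data, so leaving them out favours larger differences over time. Larger values without them are therefore no separate evidence, and those of TLR2 at 72 h rest on replicate 2 alone. All 10 CD8 T cell markers checked were above 1 CPM on average, with a summed level of 2479 to 5044 CPM per library, and Cd4 was at most 2.00 CPM. The 8 B cell markers summed to 134 to 855 CPM, from 385 to 855 CPM in OVA at 24 h down to 134 to 273 CPM in TLR7 at 72 h, so B cell RNA was present and moved with the groups. Its part in the results below was not tested. Macrophage and monocyte markers summed to 2.94 to 61.6 CPM and neutrophil markers to 0 to 104 CPM, with Ly6g under 1 CPM in every library.

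Several mitochondrial genes cannot be measured on their own in these counts, and the sequences below show why that matters. A stretch of chromosome 1 at 24.6 Mb (GRCm38, minus strand) carries copies of 7 of the 13 genes, annotated in GENCODE M21 as unprocessed pseudogenes. They are at least 99% identical over the bases aligned by blastn, which for mt-Co1 are 483 bases with 1 difference. The copy Gm28661 matches mt-Co2 in all of its 681 bases and lacks the final 3 bases of the gene, printed in capitals for chrM:7634-7696 (plus strand) beside chr1:24614885-24614944 (minus strand).
mt-Co2: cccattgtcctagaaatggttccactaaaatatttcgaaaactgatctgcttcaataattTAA
Gm28661: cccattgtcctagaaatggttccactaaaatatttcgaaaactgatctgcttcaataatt
The copy Gm28438 differs from mt-Nd3 at 1 of 345 bases, T3C, where positions count from 1 at the first base of the gene. It is the capital in chrM:9459-9491 (plus strand) and chr1:24613087-24613119 (minus strand).
mt-Nd3: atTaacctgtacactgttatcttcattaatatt
Gm28438: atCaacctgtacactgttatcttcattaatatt
The copy Gm29216 covers 492 of the 1545 bases of mt-Co1, from base 1054 on, with 6 differences that all lie in its first 13 bases (T1056A, C1057T, A1059G, A1060G, C1062A and A1066T). They are the capitals in chrM:6381-6423 (plus strand) and chr1:24616155-24616197 (minus strand).
mt-Co1: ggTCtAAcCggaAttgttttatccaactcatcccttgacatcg
Gm29216: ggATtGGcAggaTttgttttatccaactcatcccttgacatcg
Sequences and positions were taken from GENCODE M21 transcripts. A read from any stretch without a difference fits both places.

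Most of the counts for mt-Co2, mt-Co3 and mt-Atp6 sat at the copies. mt-Co2, a core subunit of complex IV, had a mean of 181 CPM and its copy 3521 CPM, so 1.52 to 12.2% of their sum per library was counted at the mitochondrial gene. For mt-Co3, another core subunit of complex IV, this share was 0.00330 to 7.90%, and TLR2 at 24 h replicate 4 had only 0.0895 CPM at the gene, below the limit of 0.286 CPM that 3 counts give in the shallowest library. For mt-Atp6, the proton channel subunit of ATP synthase, the share was 2.24 to 12.1%. mt-Nd3 held 17.7 to 59.6% of its sum and mt-Nd4l 29.9 to 72.2%, both small subunits of complex I. mt-Co1, which carries the catalytic centre of complex IV, kept 80.3 to 92.8%, and mt-Nd4 kept nearly all of its counts although 876 of its 1378 bases have an identical copy. The labels name a poly-A selected library, and counts at the copies and at the genes cannot be told apart by origin. Fold changes of mt-Co2, mt-Co3, mt-Atp6, mt-Nd3 and mt-Nd4l are therefore uncertain. The 6 genes without such an annotated copy are mt-Nd1, mt-Nd2, mt-Nd5, mt-Nd6, mt-Cytb and mt-Atp8. The search took annotated pseudogene transcripts with at least 100 aligned bases. mt-Atp8 (chrM:7766-7969) overlaps mt-Atp6 (chrM:7927-8607), so it shares bases with the copy of mt-Atp6. The bases of chromosome 1 between the copies of mt-Co2 and mt-Atp6 were not compared with mt-Atp8, so its values are uncertain too.

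**Figure D1:**
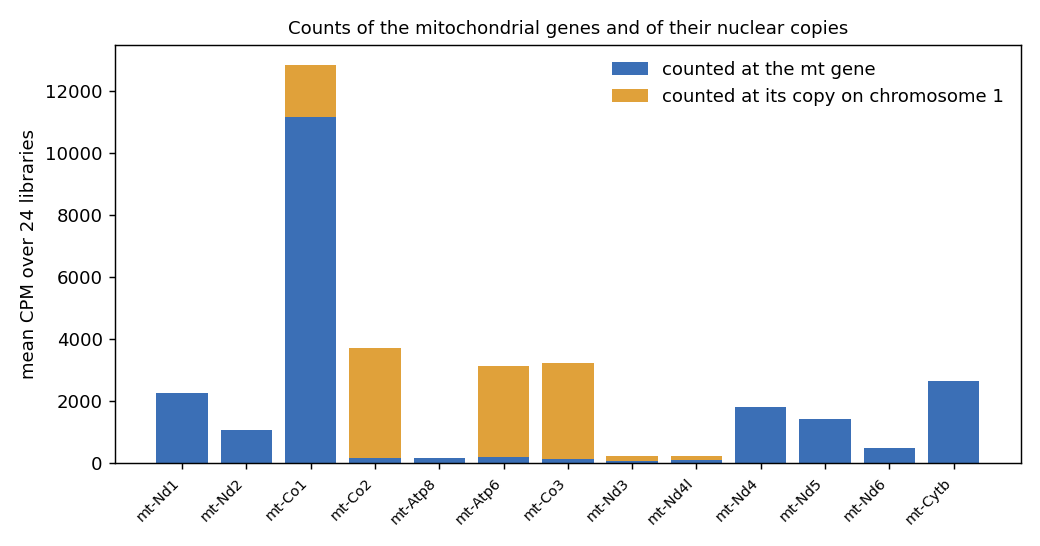
Mean CPM over 24 libraries (vertical axis) counted at each mitochondrial gene (blue) and at its near-identical copy on chromosome 1 (orange, stacked on top), with genes in the order of the mitochondrial genome. For mt-Co2, mt-Atp6 and mt-Co3 nearly the whole bar is the copy, while mt-Co1, at 11159 CPM, is mostly counted at the gene.

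Among the nuclear members, 15 have copies that are at least 97% identical, 23 in all, of which 21 are annotated as processed pseudogenes and 2 as transcribed processed pseudogenes. The counts at the copies exceeded 10% of the gene's own for Ndufb4 (208%), Atp5l (37.5%) and Atp5g2 (36.2%), whose values are uncertain for the same reason.

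Per kilobase of annotated exon, with the exons of all transcripts of a gene merged, 9 of the 13 mitochondrial genes were above every nuclear member. mt-Co1 led with a mean of 7223 CPM per kb, followed by mt-Nd1 at 2352 and mt-Cytb, the core of complex III, at 2329 CPM per kb. The most abundant nuclear member was Atp5b, the catalytic beta subunit of ATP synthase, at 408 CPM per kb, above mt-Atp6, mt-Co2, mt-Nd3 and mt-Co3 as counted at the genes alone. With the counts of the copies added, mt-Co2, mt-Atp6 and mt-Co3 rose to ranks 2 to 4 among the members, at 5411, 4592 and 4127 CPM per kb. By this measure the 13 mitochondrial genes then took ranks 1 to 13. Merged exons can be longer than any 1 transcript, 4237 bases for Atp5b against 1916 bases in its longest transcript. Per kb of that transcript Atp5b would stand higher, so the ranks hold for merged exons only. At the other end were Sdhaf3 and Ndufaf3, assembly factors of complexes II and I, at 1.38 and 3.61 CPM per kb. Isoforms known from muscle, testis or other tissues were below the 5 CPM needed for membership: Cox4i2, Cox7a1, Cox7b2, Cox8b, Cox8c and Ndufa4l2 averaged 0 to 0.476 CPM, Cox6a2 1.36 CPM and Cox6b2 4.50 CPM.

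The 87 nuclear members summed to 11793 ± 2385 CPM (SD, n = 4) in OVA, 12614 ± 669 in TLR2 and 11018 ± 833 in TLR7 at 24 h, and to 10005 ± 1069, 10011 ± 1043 and 10070 ± 598 CPM at 72 h. The 13 mitochondrial members summed to 20711 ± 1822, 19460 ± 5268 and 19081 ± 3082 CPM at 24 h, and to 21488 ± 3355, 22971 ± 6553 and 27051 ± 3557 CPM at 72 h. Without mt-Co1, the other 12 summed to 11470 ± 2160, 12364 ± 3614 and 10287 ± 2823 CPM at 24 h and to 8740 ± 856, 10306 ± 1480 and 10641 ± 1862 CPM at 72 h, so the mean was lower at 72 h in OVA and TLR2, as that of the nuclear sums was. With the counts of the copies added, the 13 summed to 32038 ± 4637, 30096 ± 8455 and 28570 ± 4527 CPM at 24 h and to 31907 ± 4143, 34124 ± 10131 and 42908 ± 6219 CPM at 72 h, which turned the difference of the OVA means. The nuclear sums of the 4 libraries did not overlap between times in TLR2 (11646 to 13184 against 8495 to 10746 CPM) and overlapped in OVA and TLR7. The mitochondrial sums did not overlap between times in TLR7 (15521 to 23009 against 23388 to 31893 CPM) and overlapped in OVA and TLR2. Both depended on the scaling: with RLE scaling the mitochondrial sums of TLR7 overlapped (up to 24029 CPM at 24 h and from 23678 CPM at 72 h), and with no scaling beyond the library total the nuclear sums of TLR2 did (from 10610 CPM at 24 h and up to 10881 CPM at 72 h). In these bulk samples, fewer cells of a type and less RNA per cell cannot be told apart, and no p-value is given for sums over chosen members.

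The ratio of the mitochondrial to the nuclear sum was 1.26 to 2.35 at 24 h and 1.76 to 3.86 at 72 h. In OVA it was 2.03, 1.46, 2.14 and 1.57 at 24 h and 1.95, 2.71, 2.17 and 1.83 at 72 h. In TLR2 it was 1.37, 2.35, 1.26 and 1.27 at 24 h and 1.99, 3.86, 1.76 and 1.87 at 72 h, in the order of the replicate numbers. In TLR7 it was 1.27, 2.08, 1.75 and 1.88 at 24 h and 2.60, 3.39, 2.34 and 2.48 at 72 h. Only in TLR7 did the 4 values at 72 h all lie above the 4 at 24 h. With the copies added, the mean ratio was 2.76, 2.42 and 2.61 in OVA, TLR2 and TLR7 at 24 h and 3.21, 3.53 and 4.28 at 72 h. Replicate 2 had the highest ratio of its group in 5 of the 6 groups, and mt-Atp8 in TLR2 at 24 h was 526 CPM in that replicate against 67.4 to 91.0 CPM in the others. Replicate 2 held the highest level of 6 to 11 of the 13 mitochondrial members in every group.

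**Figure D2:**
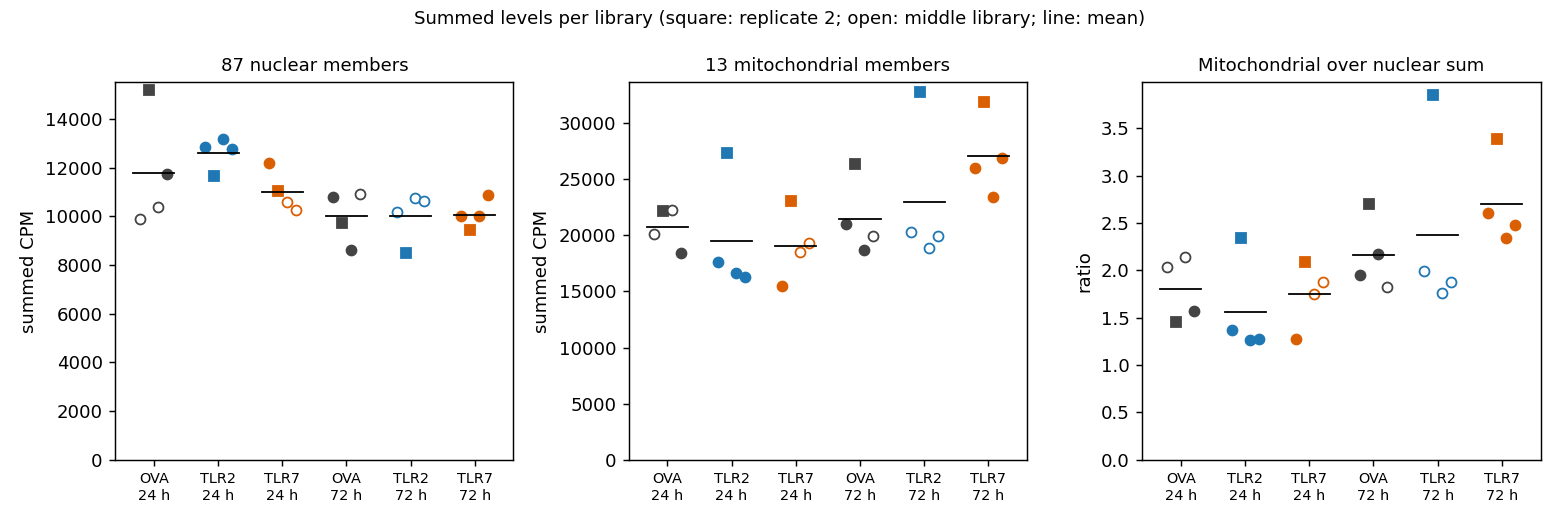
Summed CPM of the 87 nuclear members (left) and the 13 mitochondrial members (middle) and their ratio (right) in each library, by group. Squares are replicate 2, open symbols are the middle libraries and lines are means. The nuclear sums of TLR2 at 72 h lie below those at 24 h, the mitochondrial sums of TLR7 at 72 h lie above those at 24 h, and replicate 2 is the highest ratio in all groups but OVA at 24 h.

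Within the mitochondrial genome the balance between transcripts differed with time. As counted at the genes alone, mt-Co1 made up 35.0 to 55.1% of the mitochondrial sum at 24 h and 50.4 to 65.6% at 72 h. These shares leave out the copies. Over the 24 libraries the mean sum was 21794 CPM without the copies and 33274 CPM with them. The mean of mt-Co1 was 11159 CPM, and 12838 CPM with its copy, so its mean share is lower with the copies added. The ratio of mt-Co1 to mt-Nd1 CPM was 6.09, 2.03, 5.24 and 2.49 in OVA, 2.38, 2.14, 2.43 and 2.48 in TLR2 and 2.84, 2.56, 5.95 and 5.74 in TLR7 at 24 h. At 72 h it was 9.72, 11.7, 7.49 and 4.64 in OVA, 5.17, 9.30, 4.97 and 5.57 in TLR2 and 9.40, 7.82, 9.57 and 7.27 in TLR7. The 8 middle libraries, set apart by all genes, took the values from 4.64 to 6.09. Those at 24 h outside them took 2.03 to 2.84 and those at 72 h outside them 7.27 to 11.7, so the 3 sets did not overlap. mt-Nd1 has no annotated near-identical copy, and mt-Co1 kept at least 80.3% of its counts at the gene.

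Differences over time were tested gene by gene, with edgeR's quasi-likelihood test and Benjamini-Hochberg adjustment over the 14560 genes tested, at an adjusted p under 0.05. With peptide alone, 17 of the 100 members differed between 72 h and 24 h, 3 higher and 14 lower, where 18.6% of all genes did (8.17% higher, 10.4% lower). With TLR2, 32 differed, 7 higher and 25 lower, against 39% of all genes (21.7% higher, 17.4% lower). With TLR7, 31 differed, 16 higher and 15 lower, against 43.2% of all genes (19% higher, 24.2% lower). The members' shares were near the background in OVA and below it in TLR2 and TLR7. The median log2 fold change of the nuclear members was -0.20 in OVA, -0.31 in TLR2 and -0.05 in TLR7, that of the mitochondrial members -0.30, -0.19 and 0.21, and that of all genes tested 0.09, -0.01 and -0.01. Single libraries set the sign of 2 of the mitochondrial medians, which was 0.0701 in TLR2 without replicate 2 at 24 h and -0.0835 in TLR7 without replicate 2 at 72 h. The nuclear median in TLR7 was 0.0352 without the 5 libraries of low total. A negative log2 fold change in all 3 comparisons was seen for 50 of the 100 members and for 34.8% of all genes tested. The 4 libraries at 72 h lay all above or all below the 4 at 24 h for 1 and 2 members in OVA (6.77% and 3.85% of all genes), 8 and 41 in TLR2 (27% and 24%) and 20 and 21 in TLR7 (21.9% and 26.6%).

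These calls depended on which libraries entered. Without the 8 middle libraries, 47 members in OVA (8 higher, 39 lower), 35 in TLR2 (6 higher, 29 lower) and 39 in TLR7 (17 higher, 22 lower) were called, beside 48.5, 43.4 and 52.1% of all genes tested in that fit, with 1 library left in TLR2 at 72 h, assumed to vary like the others. Without the 5 libraries of low total, 0, 5 and 0 members were called in OVA, TLR2 and TLR7, beside 0, 19.0 and 0.0334% of all genes. Without the 6 libraries of replicate 2, 0, 1 and 25 were called, beside 0, 3.95 and 28.2%. For OVA, leaving out replicate 2 or 4 at 24 h, or 1, 2 or 3 at 72 h, ended all 17 calls. In those fits 0 to 0.798% of all genes were called. Leaving out a middle library gave 21 to 31 in OVA, beside 19.5 to 31.8% of all genes. For TLR2, 1 call was left without replicate 2 at 72 h (9.29% of all genes) and 9 without replicate 4 at 24 h (22.8%). There were 12 and 16 without replicates 1 and 3 at 24 h (23.2 and 28.4%), and 13 without replicate 1 at 72 h (29.4%). For TLR7, the lowest count was 19, without replicate 2 at 24 h, beside 26.5% of all genes.

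Members lower at 72 h in all 3 comparisons were Ndufaf4, Ndufa4, Ndufa5, Atp5g3, Uqcrb and Cox7b, together with Atp5a1 and Ndufaf7, which fall outside the rule for named genes and are named after their values were seen. These 8 are 57.1% of the members lower in OVA, 32% of those in TLR2 and 53.3% of those in TLR7, and over all genes tested the same shares were 57.6, 34.7 and 24.9%. The 3 comparisons share no libraries.

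Ndufaf4 (chr4:24898083-24905001, plus strand, GRCm38) encodes an assembly factor of complex I. Its level was 46.4, 139, 55.0 and 91.8 CPM in OVA, 107, 142, 101 and 106 in TLR2 and 98.5, 129, 54.7 and 59.8 in TLR7 at 24 h. At 72 h it was 18.5, 13.3, 11.97 and 61.0 CPM in OVA, 52.9, 16.5, 62.5 and 59.2 in TLR2 and 23.9, 27.1, 18.3 and 28.3 in TLR7. The groups did not overlap between times in TLR2 and TLR7, and in OVA the middle libraries overlapped. Its log2 fold changes were -1.66 ± 0.47 in OVA (SE; adjusted p = 0.0337 by edgeR), -1.25 ± 0.47 (adjusted p = 0.0395) in TLR2 and -1.81 ± 0.48 (adjusted p = 0.0063) in TLR7. Without the middle libraries, which leaves 1 library in TLR2 at 72 h, the values were -2.96, -2.76 and -2.22.

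The 250 bases before the RefSeq start of Ndufaf4 (chr4:24897833-24898082, plus strand, GRCm38.p6) hold a match to the NRF1 motif, in capitals. NRF1 is a transcription factor known to act on many respiratory genes, and the sequence is shown because Ndufaf4 had the largest decrease among the members.
Ndufaf4: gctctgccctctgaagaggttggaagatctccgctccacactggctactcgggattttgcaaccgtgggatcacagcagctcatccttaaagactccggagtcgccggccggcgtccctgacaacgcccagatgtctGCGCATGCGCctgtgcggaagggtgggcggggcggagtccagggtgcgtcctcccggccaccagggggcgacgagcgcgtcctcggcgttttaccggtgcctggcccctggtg
Promoters of 300 bases (250 before to 50 after the start, RefSeq, both strands) were found for 75 of the 87 nuclear members. The NRF1 motif was in 28.0% of them, in 11.9% of the promoters of all genes tested and in 7.23% of those of all genes in the files. It was in 3 of the 14 promoters found for nuclear members lower in at least 2 time comparisons and in 1 of the 6 for those higher. The YY1 motif was in 6.67% of the members' promoters and 1.88% of those of genes tested, CCGGAAGT (ETS) in 6.67% and 9.46%, and TGACGTCA (CRE) in 5.33% and 3.61%. Each motif was counted on its own, so matches of different motifs may overlap, and a match describes letters only.

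Every complex had subunits that were lower at 72 h in at least 1 comparison, complex II only in TLR2. Ndufa4, counted here with complex IV, to which it binds, was 117, 318, 128 and 211 CPM in OVA at 24 h and 77.1, 79.7, 70.7 and 158 at 72 h. It was 229, 213, 237 and 234 CPM in TLR2 at 24 h and 131, 58.5, 151 and 144 at 72 h. In TLR7 it was 195, 190, 125 and 133 CPM at 24 h and 72.4, 67.4, 69.2 and 90.2 at 72 h. The log2 fold changes were -1.01 ± 0.31, -0.91 ± 0.31 and -1.10 ± 0.31 (edgeR, adjusted p = 0.0374, 0.0284 and 0.00925), and -1.79, -1.94 and -1.35 without the middle libraries. Atp5g3, one of the genes for the membrane ring subunit of ATP synthase, was 197 to 552 CPM in OVA, 400 to 462 in TLR2 and 239 to 380 in TLR7 at 24 h, and 130 to 259, 135 to 265 and 133 to 181 CPM at 72 h. Its log2 fold changes were -0.95 ± 0.28, -0.90 ± 0.28 and -1.03 ± 0.28 (edgeR, adjusted p = 0.0348, 0.0206 and 0.00736), and -1.63, -1.61 and -1.27 without the middle libraries. Only in OVA did its libraries at the 2 times overlap.

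For complex III, Uqcrb, a small subunit near the quinone site, fell by log2 fold changes of -0.81 ± 0.28, -0.86 ± 0.28 and -0.93 ± 0.28 (edgeR, adjusted p = 0.0490, 0.0250 and 0.0141 in OVA, TLR2 and TLR7), and the values of Uqcrb were -1.53, -1.5006 and -1.15 without the middle libraries. For complex I, Ndufa5, an accessory subunit of the matrix arm, fell by -0.97 ± 0.33, -0.97 ± 0.33 and -1.06 ± 0.33 (edgeR, adjusted p = 0.0456, 0.0280 and 0.0162), and without the middle libraries its values were -1.77, -2.06 and -1.2964. Ndufs1, the largest iron-sulfur subunit of complex I, was lower in TLR2 (-0.67 ± 0.21, edgeR, adjusted p = 0.0216) and TLR7 (-0.97 ± 0.21, adjusted p = 0.00220), and its value in OVA was -0.58 ± 0.21 (adjusted p = 0.0578). Cox7b, a small subunit of complex IV, fell by -0.69 ± 0.21, -0.63 ± 0.21 and -0.84 ± 0.21 (edgeR, adjusted p = 0.0368, 0.0263 and 0.00495). Ndufaf2, another complex I assembly factor, fell in OVA (-1.24 ± 0.31, edgeR, adjusted p = 0.0333) and TLR2 (-1.01 ± 0.31, adjusted p = 0.0200), with -0.72 ± 0.31 (adjusted p = 0.0660) in TLR7. With the middle libraries left out, Ndufs1 in TLR2 had -1.1973, Cox7b had -1.19 in OVA and -1.16 in TLR2, and Ndufaf2 had -2.01 and -1.76. Of the 4 subunits of complex II, which also works in the citric acid cycle, 2 were lower in TLR2 and 0 in OVA and TLR7: Sdha (-0.43 ± 0.13, edgeR, adjusted p = 0.0170) and Sdhd (-0.41 ± 0.14, adjusted p = 0.0296), the latter outside the rule for named genes. Sdha had -0.69 without the middle libraries.

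Atp5b, the most abundant nuclear member, was 1539, 2407, 1550 and 2016 CPM in OVA, 2206, 2098, 2223 and 2215 in TLR2 and 2269, 2133, 1788 and 1701 in TLR7 at 24 h. At 72 h it was 1403, 1485, 1011 and 1758 CPM in OVA, 1614, 1176, 1725 and 1832 in TLR2 and 1251, 1231, 1360 and 1476 in TLR7. It fell in TLR2 (log2 fold change -0.46 ± 0.17, edgeR, adjusted p = 0.0394) and TLR7 (-0.57 ± 0.17, adjusted p = 0.0133), where the times did not overlap, and its value in OVA was -0.41 ± 0.17 (adjusted p = 0.0847). The TLR2 value of Atp5b was -0.87 without the middle libraries. The 15 members of complex V as a class summed to 5375 ± 1188, 5949 ± 272 and 5157 ± 569 CPM (SD, n = 4) in OVA, TLR2 and TLR7 at 24 h and to 4137 ± 655, 4442 ± 631 and 4118 ± 266 CPM at 72 h.

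Cox7a2l and Ndufa6 were the members higher at 72 h in all 3 comparisons. Cox7a2l (chr17:83501918-83517330, minus strand), also called SCAF1, links complexes III and IV into supercomplexes. It was 238, 148, 233 and 118 CPM in OVA, 121, 106, 125 and 126 in TLR2 and 119, 110, 242 and 238 in TLR7 at 24 h, and 381, 335, 540 and 215 in OVA, 223, 346, 228 and 229 in TLR2 and 371, 362, 377 and 390 CPM in TLR7 at 72 h. The libraries of the 2 times did not overlap in TLR2 and TLR7, and in OVA the middle library at 72 h fell among those at 24 h. The log2 fold changes were 1.00 ± 0.28, 1.10 ± 0.28 and 1.08 ± 0.28 (edgeR, adjusted p = 0.0333, 0.00957 and 0.00574), and 1.65, 1.56 and 1.72 without the middle libraries.

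Ndufa6, an accessory subunit of complex I, was 40.3 to 58.7 CPM in OVA, 41.2 to 45.5 in TLR2 and 38.0 to 66.0 in TLR7 at 24 h, and 62.6 to 99.2, 56.7 to 81.2 and 81.0 to 97.1 CPM at 72 h. No library at 72 h fell to the level of those at 24 h under the same agent. Its log2 fold changes were 0.74 ± 0.18, 0.60 ± 0.18 and 0.79 ± 0.18 (edgeR, adjusted p = 0.0333, 0.0177 and 0.00266), and without the middle libraries Ndufa6 had 0.926 in TLR2 and 1.22 in TLR7.

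Ndufv3, a subunit of the NADH-binding module of complex I, was 96.2, 36.7, 94.1 and 28.5 CPM in OVA, 31.7, 19.9, 36.1 and 29.4 in TLR2 and 24.5, 18.2, 95.01 and 77.4 in TLR7 at 24 h. At 72 h it was 189, 149, 121 and 80.7 CPM in OVA, 87.1, 129, 74.5 and 77.8 in TLR2 and 169, 122, 177 and 141 in TLR7. The middle libraries at 24 h stood above the other libraries of their groups. It rose in TLR2 (log2 fold change 1.65 ± 0.45, edgeR, adjusted p = 0.0118) and TLR7 (1.498 ± 0.44, adjusted p = 0.0118), and its value in OVA was 1.07 ± 0.44 (adjusted p = 0.0781). The values of Ndufv3 in TLR2 and TLR7 were 2.17 and 2.84 without the middle libraries. Ndufa13, a complex I subunit also called GRIM-19, rose in the same 2 comparisons, by 1.08 ± 0.38 (edgeR, adjusted p = 0.0320) and 1.38 ± 0.38 (adjusted p = 0.00808), as did the assembly factor Ndufaf3, by 0.80 ± 0.31 (adjusted p = 0.0465) and 1.15 ± 0.31 (adjusted p = 0.00727). Without the middle libraries Ndufa13 had 2.14 and Ndufaf3 1.94 in TLR7, and Ndufaf3 did not pass in TLR2 (0.946, edgeR, adjusted p = 0.0661). Another set passed the test in TLR7 without passing it in TLR2, among them Uqcrq, a small subunit of complex III (1.03 ± 0.24 in TLR7, edgeR, adjusted p = 0.00334, against 0.01 ± 0.24, adjusted p = 0.970, in TLR2), Atp5d, the delta subunit of ATP synthase (0.90 ± 0.28, adjusted p = 0.0169), and Cox4i1 (0.58 ± 0.18, adjusted p = 0.0169), the common isoform of a complex IV subunit. Whether the change over time differed between TLR2 and TLR7 was not tested.

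**Figure D3:**
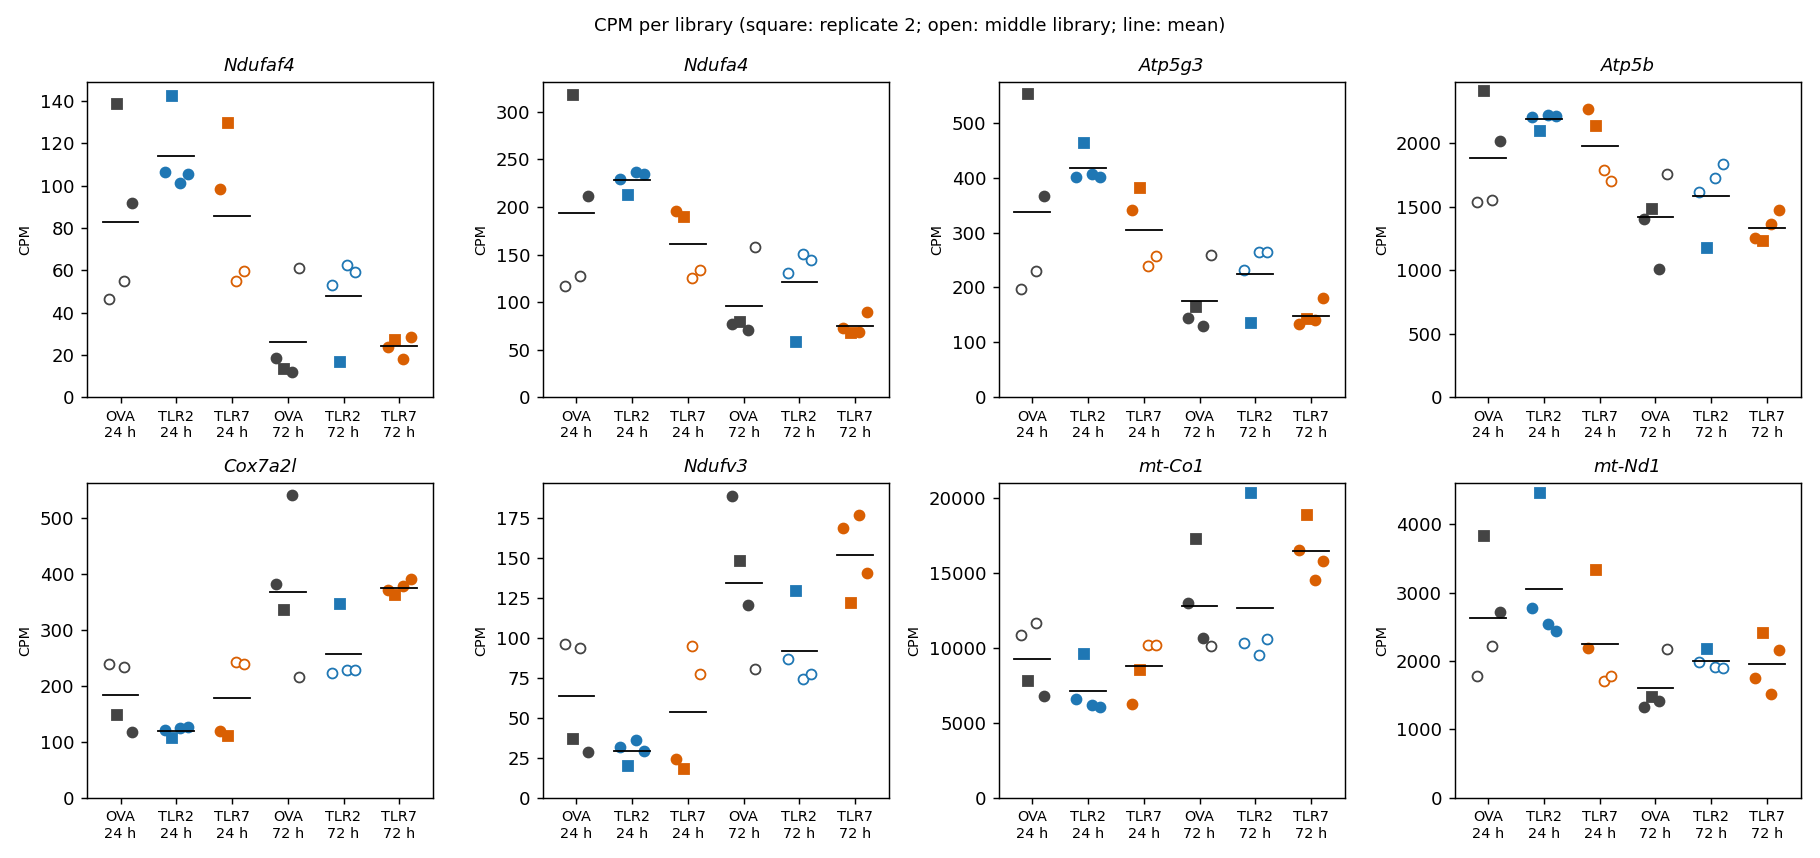
CPM in each library, by group, for 4 members lower at 72 h (top: Ndufaf4, Ndufa4, Atp5g3, Atp5b) and for Cox7a2l, Ndufv3, mt-Co1 and mt-Nd1 (bottom), each on its own linear axis from 0. Squares are replicate 2, open symbols are the middle libraries and lines are means. In every panel of a nuclear gene the middle libraries lie between the other libraries of the 2 times.

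Among the mitochondrial members, mt-Co1 (chrM:5328-6872, plus strand) was 10820, 7769, 11616 and 6759 CPM in OVA, 6611, 9552, 6164 and 6056 in TLR2 and 6240, 8536, 10201 and 10199 in TLR7 at 24 h. At 72 h it was 12954, 17264, 10643 and 10131 CPM in OVA, 10294, 20275, 9534 and 10557 in TLR2 and 16478, 18862, 14536 and 15761 in TLR7. It rose in TLR2 (log2 fold change 0.84 ± 0.25, edgeR, adjusted p = 0.0172) and TLR7 (0.90 ± 0.25, adjusted p = 0.00774), with non-overlapping times in TLR7 alone, and its value in OVA was 0.46 ± 0.25 (adjusted p = 0.157). With the counts of its copy added the values in TLR2 and TLR7 were 0.84 and 0.94, and without the middle libraries they were 1.54 and 1.15.

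mt-Nd1 (chrM:2751-3707, plus strand), a core subunit in the membrane arm of complex I, was 1775, 3835, 2215 and 2719 CPM in OVA at 24 h and 1333, 1477, 1421 and 2183 at 72 h, with the middle libraries in the overlap. It fell by -0.72 ± 0.25 (edgeR, adjusted p = 0.0499) in OVA, with -0.61 ± 0.25 (adjusted p = 0.0567) in TLR2 and -0.20 ± 0.25 (adjusted p = 0.522) in TLR7, and the OVA value was -1.2038 without the middle libraries. mt-Cytb was 2538 to 3712 CPM in OVA at 24 h and 2020 to 2347 at 72 h, without overlap, and fell by -0.47 ± 0.15 (edgeR, adjusted p = 0.0415), with -0.10 ± 0.15 (adjusted p = 0.612) in TLR2 and 0.23 ± 0.15 (adjusted p = 0.220) in TLR7. mt-Co2 passed the test in TLR2 (0.83 ± 0.32, edgeR, adjusted p = 0.0473), but with its copy added the value was -0.01 (adjusted p = 0.960), and without the middle libraries, as counted at mt-Co2 alone, it was 1.27. No other mitochondrial member passed it over time as counted at the gene. With the copies added, mt-Co2 (0.68 ± 0.20, edgeR, adjusted p = 0.0127) and mt-Atp6 (0.72 ± 0.28, adjusted p = 0.0464) passed it in TLR7 beside mt-Co1. The sum of mt-Co2 and its copy in TLR7 was 2751 to 3661 CPM at 24 h and 3882 to 5646 CPM at 72 h, without overlap. For the 6 genes without an annotated copy the median log2 fold change was -0.38 in OVA, -0.31 in TLR2 and 0.13 in TLR7.

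**Figure D4:**
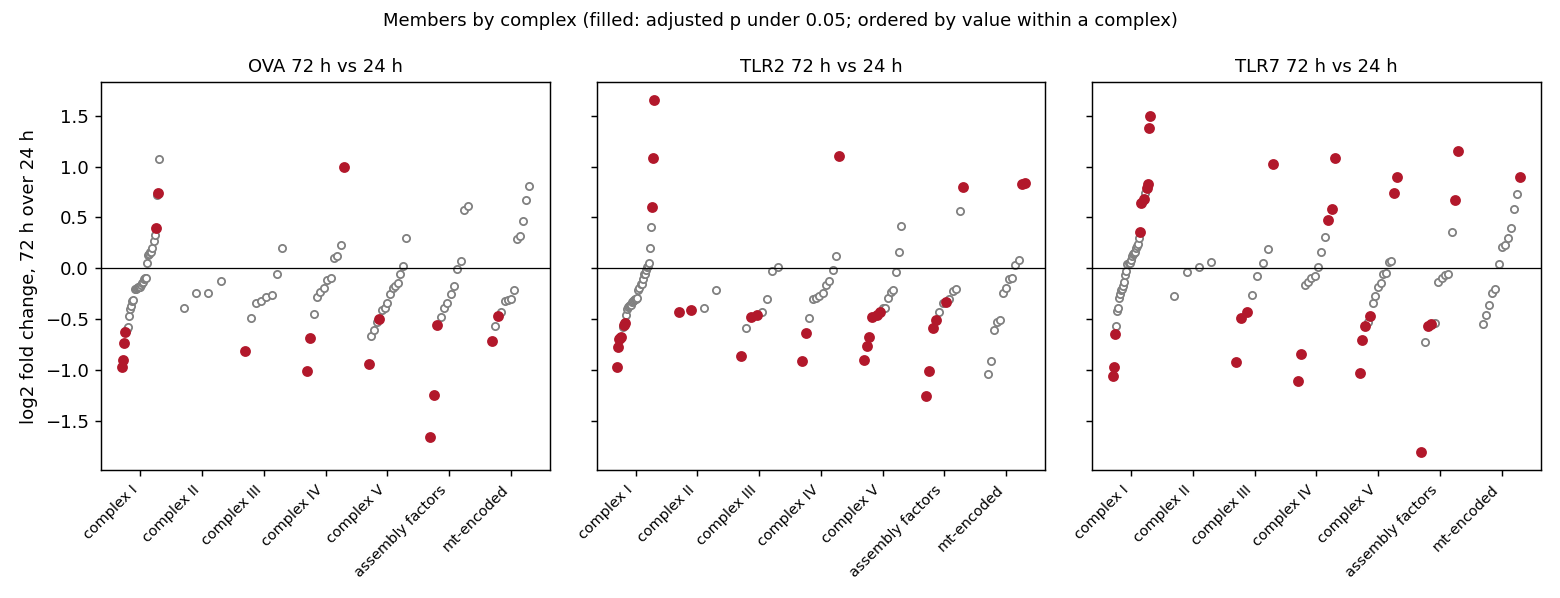
Log2 fold change of each member, 72 h over 24 h (vertical axis), by complex, in OVA, TLR2 and TLR7. Filled points have an adjusted p under 0.05 (edgeR) and open points do not. Most points of every complex lie below 0 in OVA and TLR2, and in TLR7 the complex I members spread on both sides with a median of 0.10.

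The direction of the nuclear members moved with base composition. The longest annotated transcript of the 15 nuclear members higher at 72 h in some comparison had a median GC content of 53.7%, from 49.4 to 63.3%, and that of the 27 lower ones 46.3%, from 39.5 to 55.8%. The 45 that were called in no comparison over time had a median of 49.7%, and all genes tested 49.4%. Across the 87 nuclear members, the rank correlation of GC content with the log2 fold change was 0.45 in OVA, 0.45 in TLR2 and 0.49 in TLR7, and 0.17, 0.20 and 0.29 across the 14508 genes tested that have a transcript in the annotation. Between agents at 24 h, the nuclear members had -0.6 for TLR2 over OVA, -0.4 for TLR7 over OVA and 0.42 for TLR7 over TLR2. At 72 h these values were -0.56, 0.21 and 0.48. Across all genes they were -0.35, -0.27 and 0.13 at 24 h and -0.25, 0.13 and 0.29 at 72 h. The correlation with GC content was therefore not limited to the comparisons over time. Genes of a library share its preparation and depth, so these are descriptions. The same measure taken in each library against the mean of all libraries ran from -0.67 in TLR2 at 24 h replicate 2 to 0.58 in OVA at 72 h replicate 1, and from -0.41 to 0.44 in the 8 middle libraries, 4 of which had negative values. The part of base composition in the results was not tested.

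The agonists were compared with peptide alone and with each other at each time. Between TLR2 and OVA, 0 of the 100 members passed the test at 24 h and 0 at 72 h, and so did 0% of all genes tested at either time (edgeR, with 6 and 4 members at an unadjusted p under 0.05, beside 15.2% and 11.6% of all genes, and 0 members by DESeq2, which called 345 and 82 of all genes). Between TLR7 and OVA, 0 members passed at 24 h, where 0.22% of all genes did, and 0 at 72 h, where 3.63% did (edgeR, with 1 and 5 members at an unadjusted p under 0.05, beside 10.1% and 18.7% of all genes, and 0 members by DESeq2, which called 246 and 934 of all genes). The comparisons with OVA at 1 time share the OVA libraries. The smallest adjusted p of any member in these 4 comparisons was 0.111, for Uqcrq in TLR7 against OVA at 72 h.

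The median log2 fold change of the nuclear members was 0.06 for TLR2 and -0.16 for TLR7 over OVA at 24 h, and -0.05 and 0.03 at 72 h, beside -0.01, -0.03, -0.04 and -0.08 for all genes tested. Without the middle libraries, which leaves replicate 2 alone in TLR2 at 72 h, the TLR2 median at 72 h was -0.22. In TLR7 over OVA at 24 h, 81 of the 87 were negative, from -0.50 to 0.13, with none past the test. That median was -0.0343 without replicate 2 of OVA at 24 h, whose nuclear sum was 15169 CPM and whose neutrophil markers summed to 104 CPM, the highest of all libraries. The mitochondrial medians were 0.10 and -0.07 at 24 h and 0.11 and 0.29 at 72 h. In TLR7 over OVA at 72 h all 6 mitochondrial genes without an annotated copy had positive values, from 0.04 for mt-Nd2 to 0.77 ± 0.58 for mt-Atp8. mt-Atp8, which shares bases with mt-Atp6 and its copy, had a 72 h level of 485 CPM in replicate 2 of TLR7. In the other replicates it was 155 to 203 CPM. mt-Cytb was 2482 to 3092 CPM in TLR7 and 2020 to 2347 CPM in OVA at 72 h, without overlap, and its log2 fold change of 0.36 ± 0.15 did not pass the test (edgeR, adjusted p = 0.192). Of all genes tested, 8.67% did not overlap in that comparison.

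Between TLR7 and TLR2, 0 of the 100 members passed at 24 h, where 1.24% of all genes did (edgeR, with 8 members at an unadjusted p under 0.05, beside 21.3% of all genes, and 0 members by DESeq2, which called 1016 of all genes). At 24 h 84 of the 100 were negative, with medians of -0.21 for the nuclear and -0.17 for the mitochondrial members, the latter 0.0900 without replicate 2 of TLR2. The 4 libraries of TLR7 lay all above those of TLR2 for 1 member and all below for 21, beside 5.5% and 8.52% of all genes. At 72 h, 2 passed, both higher in TLR7, where 4.77% of all genes did (0.838% higher). At an unadjusted p under 0.05 there were 23, beside 26.5% of all genes. Uqcrq was 109, 93.5, 67.2 and 97.8 CPM in TLR7 and 47.1, 42.4, 43.9 and 47.5 CPM in TLR2, a log2 fold change of 1.02 ± 0.24 (edgeR, adjusted p = 0.0256). Ndufb11, a complex I subunit encoded on the X chromosome, was 103, 101, 99.7 and 107 CPM in TLR7 and 69.2, 76.8, 74.0 and 71.2 CPM in TLR2, a log2 fold change of 0.50 ± 0.14 (edgeR, adjusted p = 0.0402). For both genes the groups did not overlap. Of the 100 members, 22 did not overlap between these groups at 72 h, beside 23.7% of all genes tested. Of the 4 TLR2 libraries at 72 h, 3 are middle libraries, so only replicate 2 is left without them. Without any 1 of the 8 libraries compared, 0 to 4 members were called, with 0 in 6 of the 8 cases. In those 6 cases 0 to 0.697% of all genes were called, and 11.3% where 4 members were. The rank correlation of GC content with this log2 fold change was 0.48 across the 87 nuclear members and 0.29 across all genes.

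**Figure D5:**
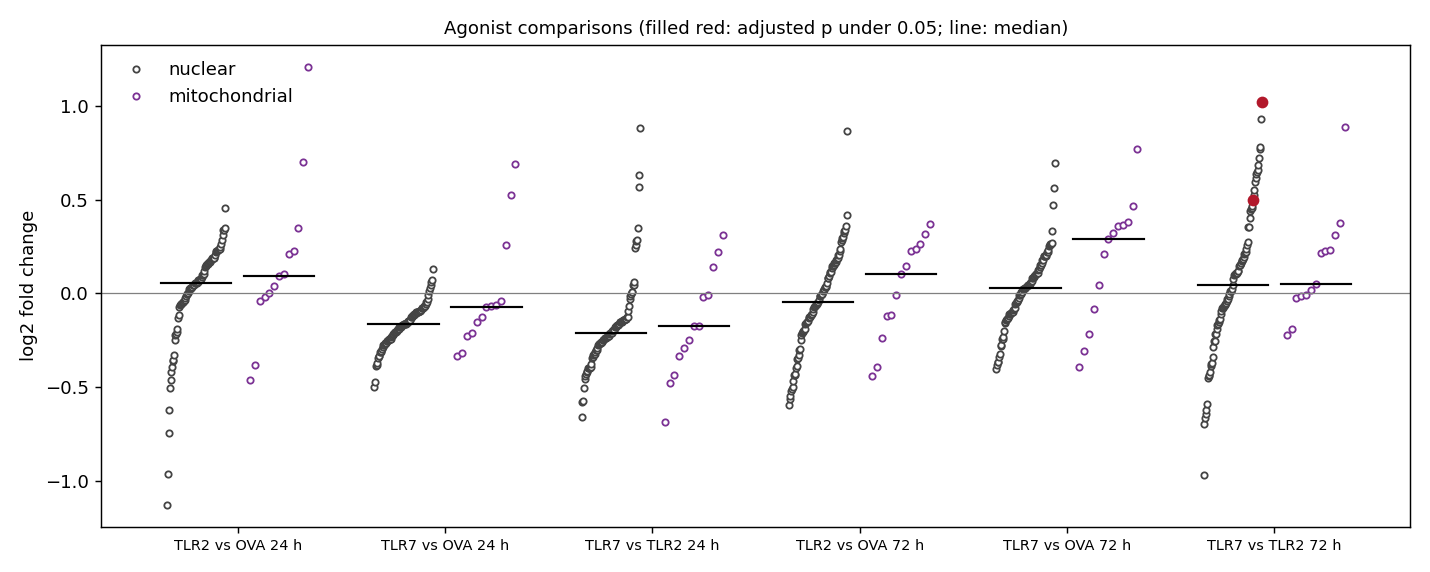
Log2 fold change (vertical axis) of the 87 nuclear members (grey) and the 13 mitochondrial members (purple) in the 6 comparisons between agents at one time, each set ordered by value, with its median as a line. The 2 filled points, Uqcrq at 1.02 and Ndufb11 at 0.50 in TLR7 against TLR2 at 72 h, are the members with an adjusted p under 0.05 (edgeR).

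Whether the agonist effect changed from 24 h to 72 h was tested as a difference of differences. For TLR2, 0 members passed, as did 0% of all genes tested, and for TLR7, 0 members passed where 0.81% of all genes did (edgeR, with 0 and 5 members at an unadjusted p under 0.05, beside 6.3% and 15.9% of all genes, and 0 and 1 members by DESeq2, which called 2 and 457 of all genes). The largest positive value for a mitochondrial gene without an annotated copy was that of mt-Cytb under TLR7, 0.70 ± 0.21 (edgeR, adjusted p = 0.114). The most negative, -0.82 under TLR2, did not pass the test. Uqcrq had 1.08 ± 0.34 under TLR7 (edgeR, adjusted p = 0.119).

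Other genes of the pathway were taken from lists and tested in the fit of all 24 libraries only. How far their calls depend on single libraries or on the middle libraries was not tested. Over all genes the OVA calls did depend on single libraries, as given above. Of 19 genes of the citric acid cycle and pyruvate entry, 6 were lower at 72 h in OVA, 11 in TLR2 and 10 in TLR7, and 0, 0 and 3 higher. Idh3a, the catalytic subunit of mitochondrial isocitrate dehydrogenase, fell in all 3 (log2 fold change -0.97 ± 0.29, -0.97 ± 0.29 and -1.18 ± 0.29, edgeR, adjusted p = 0.0353, 0.0183 and 0.00443). Pcx, on the same list, rose in TLR7 (2.41 ± 0.60, edgeR, adjusted p = 0.00457). Of 77 genes of the mitochondrial ribosome, which translates the mitochondrial members, 24, 48 and 20 were lower and 0, 0 and 6 higher. Mrpl20 fell by -1.26 ± 0.32, -0.94 ± 0.32 and -1.19 ± 0.32 (edgeR, adjusted p = 0.0333, 0.0288 and 0.00745). Of 32 genes of mitochondrial DNA maintenance, transcription and RNA handling, 13, 17 and 16 were lower and 0, 0 and 2 higher, among them Fastkd2, an RNA-binding protein of mitochondrial RNA granules, at -1.41 ± 0.39, -1.13 ± 0.39 and -1.79 ± 0.40 (edgeR, adjusted p = 0.0333, 0.0290 and 0.00232).

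Of 20 tested genes of cytochrome c, coenzyme Q and nucleotide transport, 4, 10 and 9 were lower and 0, 3 and 3 higher. Cycs, the electron carrier between complexes III and IV, was 181 to 459 CPM in OVA, 367 to 446 in TLR2 and 201 to 348 in TLR7 at 24 h, and 69.6 to 252, 93.6 to 273 and 115 to 171 CPM at 72 h. Atpif1, on the same list, rose in TLR2 (1.01 ± 0.35, edgeR, adjusted p = 0.0292) and TLR7 (1.54 ± 0.35, adjusted p = 0.00269). Of 39 tested assembly factors with other names, 9, 11 and 8 were lower and 1, 1 and 9 higher. Of 25 genes of glycolysis, 2, 14 and 7 were higher and 1, 1 and 2 lower at 72 h, led in TLR2 by Aldoc, an aldolase known from brain (6.87 ± 1.56, edgeR, adjusted p = 0.00794), and the glucose transporter Slc2a3 (3.56 ± 0.82, adjusted p = 0.00797). The largest value of any gene on this list was 1.83 in OVA and 1.54 in TLR7. Between agents at 24 h, the list reached -5.53 for TLR2 over OVA and 5.54 for TLR7 over TLR2, neither past the test. For the change of the TLR2 effect from 24 h to 72 h, 0 of the 25 passed (edgeR), so a rise particular to TLR2 is not shown. Of 16 tested regulators of mitochondrial genes, 1, 1 and 6 were lower and 1, 2 and 1 higher. The coactivator Ppargc1b fell in TLR2 (-0.76 ± 0.28, edgeR, adjusted p = 0.0365) and TLR7 (-1.12 ± 0.29, adjusted p = 0.00531). Sirt3 rose in both, by 1.26 ± 0.34 (edgeR, adjusted p = 0.0113) and 1.18 ± 0.33 (adjusted p = 0.00905), and Ppard rose in TLR2 (1.03 ± 0.36, adjusted p = 0.0326). The backgrounds are those given for the members.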

How the data were processed

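RNA of 24 libraries was measured by poly-A selected, stranded sequencing, per the labels' protocols. The authors deposited 1 table of RSEM expected counts per library, for 48526 genes. STAR, RSEM, edgeR and the GRCm38 build are named in the submitters' processing notes, with no versions. For the annotation and the strand setting: not given in the sources used here. Of the values above 0, 28.7% were not whole, and all were rounded to whole counts. RSEM shares out reads that fit several places, which bears on the mitochondrial genes with nuclear copies.

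Genes were filtered with filterByExpr (minimum count 10, minimum total 15), scaled by TMM and fitted with edgeR 4.0.16 (R 4.3.3) in 1 quasi-likelihood model of the 6 groups. The standard error is the absolute log2 fold change divided by the square root of F, and p-values were adjusted over 14560 genes by the Benjamini-Hochberg method. Levels (CPM) are counts scaled to TMM library sizes. Copies were found with blastn 2.17.0 on GENCODE M21 transcripts, and GC content is that of those transcripts. The fit was tested on simulated data. DESeq2 1.42.0 was an alternative, with the others named in the closing section. Totals of 10.5 to 27.1 M make 3 counts worth 0.286 to 0.111 CPM.

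Genes are named by a rule: all mitochondrial members, up to 8 higher and 8 lower called members per comparison by size of change, the most abundant member of each complex, members with tissue isoforms, and up to 3 genes per other list. The members and lists were chosen with earlier results of these data known. The results of 1 member are not reported here by name.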

Additional observations from a re-analysis of the deposited data

Results flagged for a closer look

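In each group of 4 libraries, the highest or lowest value was compared with the nearest other value. A library stood apart where that gap, as a share of the group's whole range, exceeded Dixon's critical value. This held for 37 of 270 groups tested, and 33 of them were high values. The genes, sums and ratios were measured in the same 24 libraries and are not independent, so this count cannot be set against a rate by chance. All values are CPM unless named as ratios.

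In TLR2 at 24 h, replicate 2 stood above the others in the mitochondrial sum (27312 against 16240 to 17652) and in the ratio of the mitochondrial to the nuclear sum (2.35 against 1.26 to 1.37). The same replicate stood above the others for mt-Atp6 (326), mt-Atp8 (526), mt-Co1 (9552), mt-Cytb (3711), mt-Nd1 (4455), mt-Nd2 (2252), mt-Nd4 (3015) and mt-Nd5 (2003). Among nuclear members it was high for Atp5g3 (462) and Ndufaf4 (142) and low for Atp5b (2098). Replicate 4 of that group was low for Sdha (318).

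In TLR2 at 72 h, replicate 2 stood above the others in the mitochondrial sum (32762 against 18907 to 20258), in the ratio of the sums (3.86) and in the ratio of mt-Co1 to mt-Nd1 (9.30). It was high for mt-Atp8 (248), mt-Co1 (20275), mt-Nd4 (2309.6), mt-Nd6 (599) and Cox7a2l (346), and low for Atp5j (73.0) and Sdha (204). The other 3 libraries of that group are middle libraries.

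In TLR7 at 24 h, replicate 2 was high for mt-Atp8 (431), mt-Nd4 (2544), mt-Nd5 (1946) and mt-Nd6 (561), and replicate 1 was high for Cox7a2 (139.7). In TLR7 at 72 h, replicate 2 was high for mt-Atp8 (485), and replicate 4 for Atp5j (107) and Ndufa12 (67.0). In OVA at 72 h, replicate 4, a middle library, was high for Ndufa4 (158), Ndufa5 (45.9), Ndufaf4 (61.0) and mt-Nd1 (2183), and replicate 1 for Cox6a1 (115).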

How the results depend on the processing

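Counts of members called are given for 72 h against 24 h in OVA (17 as reported), TLR2 (32) and TLR7 (31), for TLR7 against TLR2 at 72 h (2) and for the change of the TLR7 effect (0). With no filter on low counts, OVA had 5, TLR2 15 and TLR7 against TLR2 1, beside 4.26, 15.1 and 2.22% of all genes. With only the groups compared in the fit, OVA had 0 and TLR7 against TLR2 21, beside 0 and 24.8%. Without the 8 middle libraries OVA had 47 and TLR7 against TLR2 0, beside 48.5 and 0%. Without the 5 libraries of low total the first 4 counts were 0, 5, 0 and 0, beside 0, 19.0, 0.0334 and 0%. Without the 6 libraries of replicate 2, chosen after seeing the data, OVA had 0, TLR2 1 and TLR7 against TLR2 8, beside 0, 3.95 and 8.01%. DESeq2 gave 7 for TLR7 against TLR2 and 1 for the change of the TLR7 effect, beside 10.4 and 3.27%. With the replicate number as a block these were 5 and 1, beside 5.18 and 0.652%. The cause of these differences was not tested.

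Deviations of same-numbered libraries correlated at -0.616 to 0.525 (median 0.039), over 0.1 in 21 of 60 pairs, so the criterion that every pair exceed 0.1 was not met, although replicate 2 was highest for 6 to 11 of 13 mitochondrial members in every group.

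Medians of log2 fold changes moved as follows. Without the middle libraries, where TLR2 at 72 h is replicate 2 alone and its medians have no replicate check, nuclear medians were -0.22 for TLR2 against OVA at 72 h, 0.32 for TLR7 against TLR2 at 72 h, -0.43 for OVA and -0.51 for TLR2 over time, and 0.38 for the change of the TLR7 effect. Mitochondrial medians were 0.55 and -0.26 for the same 2 agonist comparisons, 0.23 for TLR2 and -0.0839 for TLR7 over time, and 0.60 for the change of the TLR2 effect. Without the libraries of low total, mitochondrial medians were 0.0424 for TLR7 against OVA at 72 h, -0.50 for TLR7 against TLR2 at 24 h and 0.43 for the change of the TLR7 effect, which was 0.53 with the copies added. With its copy, mt-Co2 in TLR2 over time was -0.0143, a reversal.

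Leaving out 1 library at a time gave 0 to 31 calls in OVA over time, beside 0 to 31.8% of all genes. TLR2 over time had 1 to 29 (9.29 to 35.1% of all genes) and TLR7 19 to 33 (26.5 to 46%). TLR7 against TLR2 at 72 h had 0 to 4 (0 to 11.3%). Against OVA at 72 h, TLR2 had 0 to 1 (0 to 3.77%) and TLR7 0 to 3 (0.623 to 9.27%), the 3 without OVA replicate 1. The change of the TLR7 effect had 0 to 2 (0 to 5.09%). Mitochondrial medians ran from -0.28 to 0.0701 in TLR2 over time, -0.0835 to 0.34 in TLR7 over time, 0.0859 to 0.40 in TLR7 against OVA at 72 h and 0.0354 to 0.45 for the change of the TLR7 effect. Of 1218 alternatives for 58 named calls, 907 kept the call, 310 lost it and 1 reversed.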
